A study of Capra hircus with 9 samples.

Results

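The genes described are 10 genes of milk fatty acid synthesis in the goat mammary gland, chosen by symbol from the gene table: ACSS2, ACLY, ACACA, FASN, SCD, FADS1, ELOVL6, SREBF1, INSIG1 and THRSP. They are 10 of 23499 genes in the table, and all 10 passed the filter on low values (at least 0.5 FPKM in at least 3 libraries), as did 14701 genes in all. FPKM relate the fragments of a gene to its length and to all mapped fragments of the library, so levels of different genes can be compared per length. The rule used the symbol alone and no measured value, although the list was chosen with earlier results of these data known.

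RNA was sequenced from the mammary gland of 9 Laoshan dairy goats, a Chinese dairy breed, with 1 library per goat. All goats were healthy and of parity 3, with an average age of 4 years, and had been kept on 1 farm under its usual feeding. Tissue came from 3 goats in late lactation (LL) at 240 days postpartum, from 3 in the dry period (DP) at 300 days postpartum and from 3 in late gestation (LG) at 140 days after mating. The stages are therefore different animals, and the tissue is a mixture of epithelium, stroma, vessels and blood cells, in which fewer cells of a type and less RNA per cell cannot be told apart.

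Ruminants take acetate from rumen fermentation as the main carbon source of the fatty acids made in the udder. Acetyl-CoA synthetase (ACSS2) activates acetate in the cytosol, whereas ATP citrate lyase (ACLY) makes acetyl-CoA from citrate, the route that carries carbon from glucose in other mammals. Acetyl-CoA carboxylase (ACACA) makes malonyl-CoA, and fatty acid synthase (FASN) extends the chain with it. SCD introduces the double bond that turns stearate into oleate, ELOVL6 lengthens palmitate to stearate, and FADS1 is the delta-5 desaturase of polyunsaturated fatty acids. SREBF1 encodes the transcription factor SREBP1, which switches on many of these genes, INSIG1 holds SREBP in the endoplasmic reticulum, and THRSP (Spot 14) is a lipogenic nuclear protein induced by thyroid hormone.

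Libraries of 1 stage correlated at 0.920 to 0.980 (Pearson's r of log2 values) and libraries of different stages at 0.752 to 0.868. The milk protein gene CSN2 (beta-casein) was lowest in DP, where it was at 17.6 to 47.8 FPKM against 83442 to 101530.1 in LL. Summed over all genes, a library held 940676 to 1157015 in LL, 601250.2 to 616268 in DP, with 733277 to 768157 in LG. The values were divided by median-ratio factors of 0.498 to 0.605 in LL, with 1.44 to 1.53 in DP and 1.198 to 1.31 in LG. Below, "FPKM" is a value as deposited, "scaled" is FPKM divided by the factor, and a fold change is the limma estimate on log2(scaled FPKM + 1), which understates the change of low genes. Without this division the median of all genes tested moved by 1.09 (log2) for DP and by 0.93 for LG, each against LL, and by -0.18 for LG against DP, so each change is relative to the bulk of genes. A gene was called when its adjusted p was under 0.05 and its log2 fold change at least 1 in size. Nothing in the labels ties the libraries to batches.

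In DP against LL, 7 of the 10 genes were called lower (SCD, FASN, FADS1, INSIG1, ACSS2, ACACA and SREBF1) and 1, ACLY, was called higher. Over all genes tested, 8.79% were called lower and 13.8% higher in this comparison, 22.6% in all. The median log2 fold change of the 10 genes was -2.63, beside 0.00 for all genes, and without scaling it was -1.29 with 6 of the 10 changes below 0 and 9 of the 10 below the median of all genes. Scaled values of the 2 stages did not overlap for the same 8 genes, 7 lower and 1 higher, as was so for 33.4% and 32.5% of all genes. In LG against LL, 5 genes were called lower (SCD, INSIG1, FADS1, FASN and ACACA) and 2 higher (ELOVL6 and ACLY), while 6.61% of all genes were called lower and 10.7% higher, 17.3% in all. The scaled values of these 2 stages did not overlap for the same 7 genes, nor for 30.2% (lower) and 31% (higher) of all genes. The median of the 10 genes was -0.74 in this comparison and 0.40 without scaling, where 7 of the 10 lay below the median of all genes. In LG against DP, 5 genes were called higher (SCD, FASN, ACSS2, ELOVL6 and ACACA) and 0 lower, against 6.37% and 6.88% of all genes, 13.3% in all. Here 7 genes did not overlap, all higher, SREBF1 and INSIG1 besides those called, beside 25.1% of all genes higher and 22.8% lower. The median was 1.48, and 1.36 without scaling. The LL libraries serve as reference in the first 2 of these comparisons and the DP libraries enter the first and the last, so the comparisons are not independent of each other.

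**Figure D1:**
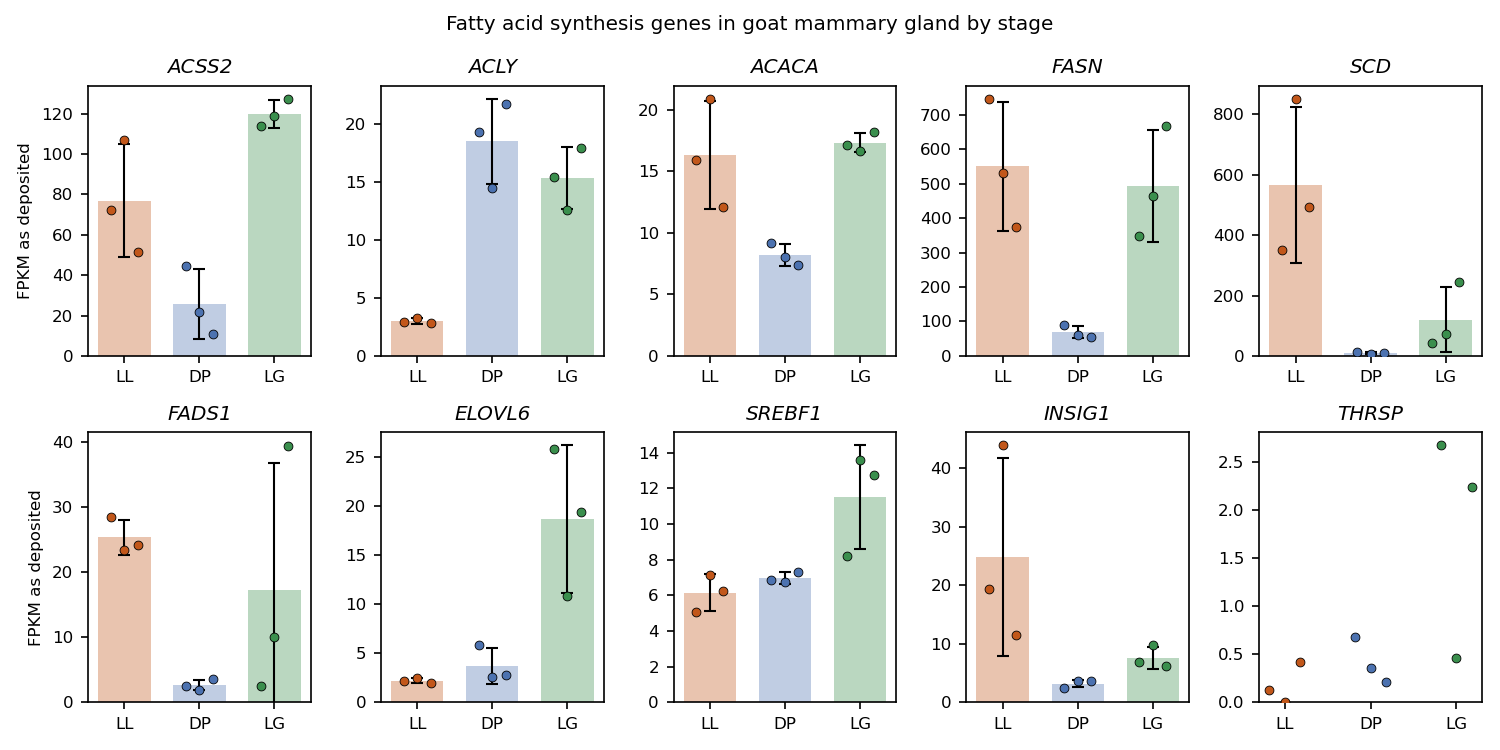
FPKM as deposited (y axis, a separate linear scale from 0 for each gene) of the 10 genes in LL, DP and LG, with 1 point per library, bars at the mean and error lines of 1 SD (n = 3). THRSP has points only, since it is listed at 0 in 1 library. FASN falls from 373 to 747 FPKM in LL to 56.3 to 89.2 in DP, while ACLY stands at 2.83 to 3.28 in LL and 14.5 to 21.6 in DP.

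Between LL and DP, ACSS2 of the acetate route fell while ACLY of the citrate route rose. ACSS2 (gene 102169772, chromosome 13, 63760207 to 63804609, plus strand) was at 72.5, 107 and 51.4 FPKM in the LL libraries, at 44.7, 21.9 and 10.8 in the DP libraries and at 114, 119 and 127 in the LG libraries. All DP values were below all LL and LG values, and the LG values were the most even of any stage. Scaled levels averaged 141 ± 54.4 in LL, 17.3 ± 11.0 in DP and 96.1 ± 1.02 in LG (mean ± SD, n = 3). ACSS2 fell by 3.07 (log2) between LL and DP (SE 0.43, adjusted p = 0.000295 by limma, an 8.39-fold difference) and was higher by 2.60 in LG against DP (adjusted p = 0.00165). Under quantile normalization the first of these was -2.48. Between LG and LL the difference was -0.47 (95% interval -1.43 to 0.48, adjusted p = 0.382), and it was 0.69 without scaling, so its direction depended on the scaling.

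ACLY (gene 102181894, chromosome 19, 41695187 to 41737815, minus strand) was at 2.89, 3.28 and 2.83 FPKM in LL, at 19.3, 14.5 and 21.6 in DP and at 15.4, 12.6 and 17.9 in the LG libraries. The LL values were the lowest of all 9 libraries. After scaling the levels averaged 5.47 ± 0.692 in LL, 12.6 ± 2.50 in DP and 12.2 ± 1.80 in LG (n = 3). ACLY was higher in DP against LL by 1.06 (log2, SE 0.17, adjusted p = 0.00077) and in LG against LL by 1.03 (adjusted p = 0.00114). Both changes were close to the threshold of 1: without LL replicate 3 or DP replicate 3 the first was 0.96 and 0.93, and without LL replicate 3, LG replicate 1 or LG replicate 3, or under quantile normalization, the second was 0.93 to 0.99, each with an adjusted p under 0.05. LG and DP differed by -0.03 (95% interval -0.42 to 0.36, adjusted p = 0.908).

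A ratio within a library does not depend on the scaling between libraries. The ratio of ACSS2 to ACLY was 25.1, 32.6 and 18.2 in LL, with 2.32, 1.51 and 0.497 in DP and 7.39, 9.46 and 7.12 in LG. The 3 stages did not overlap, with LL highest and DP lowest, and in DP replicate 3 ACLY stood above ACSS2. The pair was picked with its values in view, so no test was run on it. ACSS1, the mitochondrial acetyl-CoA synthetase, also fell in DP, from 41.8 to 54.1 FPKM in LL to 7.17 to 12.4 in DP (log2 fold change -3.45, adjusted p = 1.13e-05). In LG it was at 9.51 to 21.4 FPKM (-2.64 against LL, adjusted p = 6.84e-05), so that its ratio to ACSS2 was 0.0836 to 0.168 in LG against 0.506 to 0.828 in LL and 0.236 to 0.667 in DP.

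ACACA and FASN, the committing step and the chain-building enzyme, were lowest in DP. ACACA (gene 100861224, chromosome 19, 13063977 to 13351894, minus strand) was at 15.9, 20.9 and 12.1 FPKM in LL, 9.19, 8.05 and 7.42 in DP, with 17.2, 16.6 and 18.2 in LG. All DP values lay below all others, and the LG values fell inside the range of LL. Scaled levels averaged 29.9 ± 9.04 in LL, 5.58 ± 0.429 in DP and 13.9 ± 0.425 in LG (n = 3). The log2 fold changes were -2.19 in DP against LL (SE 0.20, adjusted p = 2.83e-05), -1.01 in LG against LL (adjusted p = 0.00303) and 1.18 in LG against DP (adjusted p = 0.00211). Without scaling they were -0.88, 0.11 and 0.99, none of which reached the threshold of 1. The call in LG against LL was also lost, at -0.82 to -0.99, under quantile normalization, with an epithelial reference for the scaling, with the libraries of these 2 stages alone, and without LL replicate 1, LL replicate 2 or LG replicate 2.

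FASN (gene 100861286, chromosome 19, 50154013 to 50172781, plus strand) was at 747, 532 and 373 FPKM in LL, with 89.2, 61.2 and 56.3 in DP and 347, 466 and 668 in LG. The DP libraries did not overlap with the others, while LL and LG overlapped in FPKM. Scaled levels averaged 1026 ± 445 in LL, 46.7 ± 10.3 in DP and 392 ± 109.8 in LG (n = 3). FASN fell by 4.36 (log2, SE 0.33, adjusted p = 9.35e-06, 20.5-fold) in DP against LL, and by 2.95 without scaling or 3.69 under quantile normalization. It was higher in LG than in DP by 3.03 (adjusted p = 0.000213, 8.15-fold). In LG against LL it was -1.33 (adjusted p = 0.00834), and -0.15 without scaling, which was not called.

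The values of FASN are tied to those of its neighbour. CCDC57, a coiled-coil gene on the same strand 3213 bases away (chromosome 19, 50041459 to 50150799), was 1.92 to 2.42 FPKM below FASN in every library, so the 2 genes are not separate measurements in this table and the part of each cannot be told apart. Among the 8 next genes on either side of each of the other 9 genes, no such link was found.

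SCD had the largest fold changes of the 10 genes. SCD (gene 100860763, chromosome 26, 30404780 to 30415917, minus strand) was at 350.2, 851 and 495 FPKM in LL, 13.8, 6.56 and 8.19 in DP, with 42.9, 73.4 and 244 in LG. The 3 stages did not overlap, and LG replicate 3 stood above the other LG libraries. Scaled levels averaged 1019.8 ± 453 in LL, 6.41 ± 2.31 in DP and 93.6 ± 80.4 in LG (n = 3). SCD fell by 7.06 (log2, SE 0.54, adjusted p = 9.94e-06) in DP against LL, 134-fold, and without scaling by 5.71. LG was 3.69 below LL (adjusted p = 0.000531) and 3.38 above DP (adjusted p = 0.00141), values that became -4.35 and 2.71 without LG replicate 3.

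SCD5, the second stearoyl-CoA desaturase gene, was highest in LG. It was at 2.29, 1.34 and 3.71 FPKM in LL, with 7.28, 2.06 and 6.09 in DP and 25.9, 19.5 and 36.2 in LG, where all libraries were above those of both other stages. SCD5 was called higher in LG against LL (log2 fold change 2.10, adjusted p = 0.00142) and against DP (2.40, adjusted p = 0.0011). In DP against LL it was -0.30 (adjusted p = 0.502), and 0.77 without scaling. The ratio of SCD to SCD5 was 133 to 635 in LL, 1.34 to 3.18 in DP, with 1.66 to 6.74 in LG.

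FADS1 (gene 102178247, chromosome 29, 40597487 to 40611143, minus strand) was even in LL and DP and widely spread in LG. Its values were 28.4, 23.4 and 24.1 FPKM in LL, 2.57, 1.94 and 3.56 in DP, with 2.57, 10.1 and 39.4 in LG. In FPKM, LG replicate 1 was at the DP level and LG replicate 3 above every LL library. After scaling, LG replicate 3 (29.9) lay below every LL library (39.9 to 57.1). FADS1 fell by 4.07 (log2, SE 0.64, adjusted p = 0.000634) in DP against LL. LG differed from LL by -2.28 (adjusted p = 0.0147), with -1.48 without LG replicate 1, -3.12 without LG replicate 3 and -1.17, not called, without scaling. In LG against DP it was 1.78 (95% interval 0.35 to 3.22, adjusted p = 0.0557), which passed the threshold in 5 alternatives, at 2.58 without LG replicate 1, and was 0.93 without LG replicate 3.

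The related FADS2 and FADS3, also on chromosome 29, were not called. FADS2, the delta-6 desaturase, was at 0.12 to 0.18 FPKM in LL, with 0.47 to 2.11 in DP and 0.19 to 0.54 in LG (log2 fold changes 0.43 for DP and 0.00 for LG against LL, and -0.42 for LG against DP, adjusted p = 0.111, 0.993 and 0.151). FADS3 was at 1.24 to 1.90 FPKM in LL, 6.64 to 10.4 in DP, with 3.24 to 8.51 in LG. It was not called after scaling (0.68, 0.50 and -0.18, adjusted p = 0.0481, 0.139 and 0.625) but was called higher in DP and in LG against LL without scaling.

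ELOVL6 (gene 102181762, chromosome 6, 15519415 to 15659184, plus strand) was the one enzyme of the 10 whose scaled values in LG lay above all those of both other stages. It was at 2.18, 2.54 and 1.97 FPKM in LL, with 5.88, 2.61 and 2.78 in DP and 25.9, 10.8 and 19.4 in LG. Scaled levels averaged 4.07 ± 0.719 in LL, 2.53 ± 1.14 in DP and 15.1 ± 6.40 in LG (n = 3). LG exceeded LL by 1.59 (log2, SE 0.30, adjusted p = 0.00229, 3.01-fold) and DP by 2.15 (adjusted p = 0.000729, 4.44-fold). DP and LL overlapped after scaling and differed by -0.56 (95% interval -1.24 to 0.12, adjusted p = 0.14), with 0.50 without scaling.

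ELOVL5, which elongates polyunsaturated chains, was lowest in LG on the scaled values. It was at 2.63 to 3.16 FPKM in LL, with 5.93 to 7.92 in DP and 1.31 to 3.75 in LG. It was called lower in LG against LL (log2 fold change -1.19, adjusted p = 0.00133; -0.30 and not called without scaling) and against DP (-1.05, adjusted p = 0.00389). In DP against LL it was -0.14 (adjusted p = 0.575), and it was called higher, at 1.01, without scaling.

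Of the regulators, SREBF1 was highest in LG in FPKM and lowest in DP after scaling. SREBF1 (gene 100860908, chromosome 19, 34288792 to 34295549, plus strand) was at 5.08, 7.13 and 6.26 FPKM in LL, 6.85, 6.73 and 7.34 in DP, with 8.21, 13.6 and 12.8 in LG. In FPKM, LL and DP overlapped and all LG libraries were higher. After scaling the levels averaged 11.1 ± 1.51 in LL, 4.75 ± 0.317 in DP and 9.19 ± 2.13 in LG (n = 3), and the DP libraries lay below all others. In DP against LL the estimate of -1.07 was called (SE 0.17, adjusted p = 0.00065), was 0.17 without scaling, and missed the threshold of 1 with an epithelial reference (-0.93) and without LL replicate 2 (-0.9996). LG differed from LL by -0.27 (95% interval -0.65 to 0.11, adjusted p = 0.216), or 0.79 without scaling, and from DP by 0.80 (adjusted p = 0.00574), below the fold that was called.

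INSIG1 (gene 102183937, chromosome 4, 2747017 to 2757803, minus strand) was highest in LL and lowest in DP. It was at 19.3, 43.9 and 11.4 FPKM in LL, with 2.47, 3.59 and 3.61 in DP and 6.96, 9.79 and 6.21 in LG. The 3 stages did not overlap, and LL replicate 2 stood above the other LL libraries. INSIG1 fell by 3.65 (log2, SE 0.42, adjusted p = 8.84e-05) in DP against LL, and by 2.42 without scaling. LG was 2.50 below LL (adjusted p = 0.00109). LG exceeded DP by 1.15 (95% interval 0.21 to 2.08), which missed the threshold (adjusted p = 0.0578) and passed it in 7 alternatives, with an adjusted p of 0.0128 and 0.0133 without LL replicate 2 or LL replicate 3. The ratio of INSIG1 to SREBF1 was 1.83 to 6.16 in LL, 0.361 to 0.533 in DP, with 0.487 to 0.848 in LG.

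The paralogues of both regulators were not called. INSIG2 was at 2.61 to 3.57 FPKM in LL, with 4.54 to 5.96 in DP and 3.48 to 3.81 in LG (log2 fold changes -0.45 for DP and -0.71 for LG against LL, and -0.26 for LG against DP). INSIG1 stood at 4.16 to 12.3 times INSIG2 in LL, at 0.431 to 0.795 in DP and at 1.77 to 2.57 in LG. SREBF2, which acts mainly on cholesterol synthesis, was at 4.66 to 6.27 FPKM in LL, with 6.95 to 8.90 in DP and 8.86 to 10.4 in LG (-0.75, -0.33 and 0.42). The log2 fold changes of INSIG2 and SREBF2 against LL were above 0 without scaling, and neither was called under any of the scalings tried.

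THRSP (gene 102178144, chromosome 29, 17430132 to 17435304, minus strand) was the lowest of the 10 genes in each stage. It was at 0.13, 0.00 and 0.42 FPKM in LL, at 0.68, 0.36 and 0.21 in DP and at 2.67, 0.46 and 2.24 in the LG libraries. LG replicates 1 and 3 stood above all others, while LG replicate 2 was inside the range of DP. THRSP was not called (log2 fold changes -0.02, 0.83 and 0.84, adjusted p = 0.969, 0.0477 and 0.0591), and without LG replicate 2 it was called higher in LG against LL (1.18) and against DP (1.196). It was also called in LG against LL without LL replicate 3 (1.06) and without scaling (1.15). Its relative MID1IP1, which promotes the assembly of acetyl-CoA carboxylase, was at 1.65 to 2.10 FPKM in LL, 2.93 to 5.33 in DP, with 0.93 to 1.04 in LG. MID1IP1 was called lower in LG against LL (-1.31, adjusted p = 0.000186; -0.54 and not called without scaling) and against DP (-1.09, adjusted p = 0.000872).

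**Figure D2:**
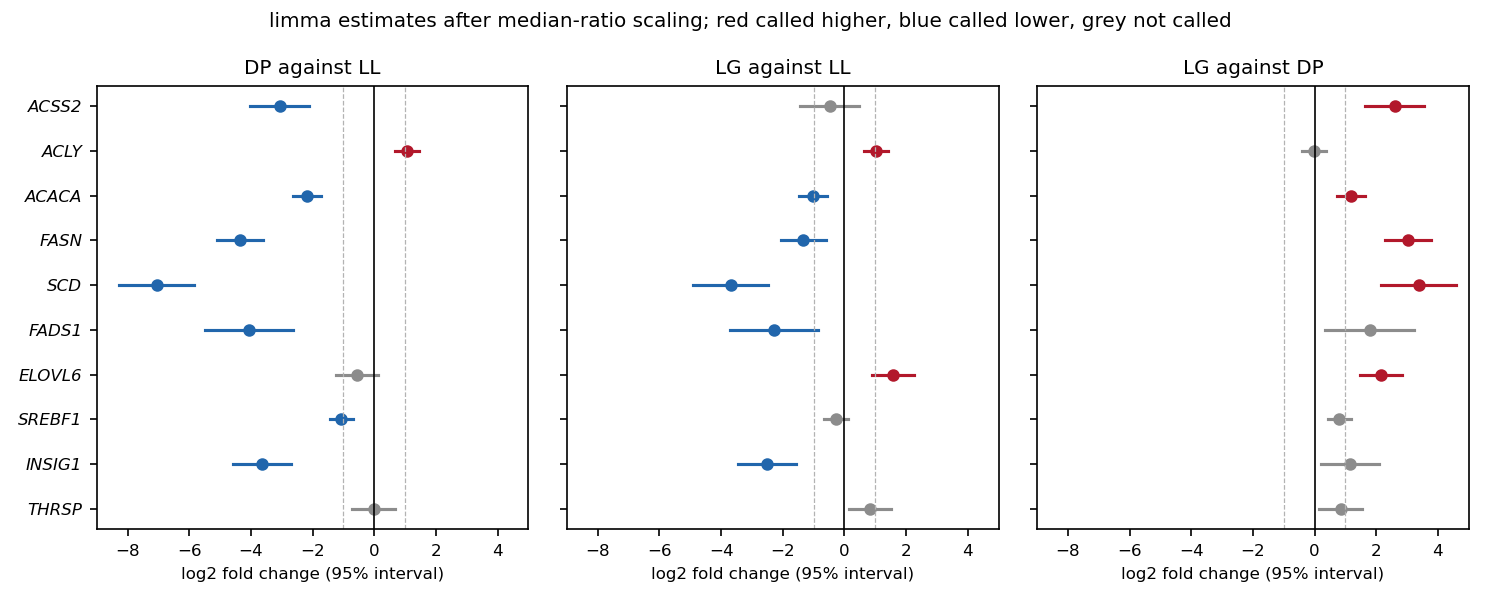
Log2 fold change (x axis) of each of the 10 genes (y axis) in DP against LL, LG against LL and LG against DP, with points at the limma estimate after median-ratio scaling and lines for the 95% interval. Red genes were called higher, blue genes lower and grey genes not, and dashed lines mark a log2 fold change of 1 in size. SCD is farthest from 0 in each panel, and ACLY lies on the other side of 0 from FASN in the first 2 panels.

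The order of the genes by level also changed with the stage. In LL the mean FPKM ran SCD (565 ± 258), FASN (551 ± 187), ACSS2 (77.0 ± 28.1), FADS1 (25.3 ± 2.73), INSIG1 (24.9 ± 16.9), ACACA (16.3 ± 4.39), SREBF1 (6.16 ± 1.03), ACLY (3.00 ± 0.244), ELOVL6 (2.23 ± 0.288) and THRSP (n = 3). The values of SCD and FASN overlapped, as did those of FADS1 with INSIG1 and of INSIG1 with ACACA. In DP the order was FASN (68.9 ± 17.8), ACSS2 (25.8 ± 17.3), ACLY (18.5 ± 3.65), SCD (9.50 ± 3.77), ACACA (8.22 ± 0.897), SREBF1 (6.97 ± 0.323), ELOVL6 (3.76 ± 1.84), INSIG1 (3.22 ± 0.652), FADS1 (2.69 ± 0.817) and THRSP. ACLY thus had rank 8 in LL and rank 3 in DP, where its values overlapped with those of ACSS2. In LG it was FASN (494 ± 162), SCD (119.99 ± 108), ACSS2 (119.98 ± 6.90), then ELOVL6, FADS1, ACACA, ACLY, SREBF1 and INSIG1 between 18.7 and 7.65 FPKM, each overlapping with the next, and THRSP.

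As a share of all FPKM in the library, the 10 genes made up 0.118% ± 0.0215 in LL, 0.0244% ± 0.0068 in DP and 0.109% ± 0.0368 in LG (n = 3). The DP libraries were below all others, with an exact permutation p of 0.1 (two-sided) against LL and LG, the smallest that 3 against 3 allows. LL and LG overlapped (exact permutation p = 0.7). Of that sum, FASN, SCD and ACSS2 together held 93.6% to 94.1% in LL, with 61.8% to 75.9% in DP and 86.5% to 89.95% in LG. When milk protein genes were left out of the total, the share was 0.181% ± 0.0386 in LL, 0.0244% in DP and 0.111% in LG, and LL and LG no longer overlapped (exact permutation p = 0.1).

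The composition was tested through the ratio of each gene to FASN within the library, with an exact permutation test over the 280 ways to divide 9 libraries into the 3 stages, for which 0.00357 is the smallest p, adjusted over 9 ratios. The test used log2 ratios of FPKM + 1, and the percentages are of FPKM. ACLY was at 0.387% to 0.758% of FASN in LL, 21.6% to 38.4% in DP, with 2.68% to 4.43% in LG (exact permutation p = 0.00357, adjusted p = 0.0161). SREBF1 was at 0.68% to 1.68% of FASN in LL, with 7.68% to 13.0% in DP and 1.91% to 2.92% in LG (adjusted p = 0.0161 in the same permutation test). Both ratios separated all 3 stages, in the order DP, LG, LL. SREBF1 itself was at 5.08 to 7.13 FPKM in LL and 6.73 to 7.34 in DP, so between these 2 stages its ratio followed mainly the fall of FASN.

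Among the other ratios to FASN, those of THRSP (permutation test, adjusted p = 0.0214), ACACA, SCD and ELOVL6 (adjusted p = 0.0321 each) differed between stages. THRSP did not exceed 0.68 FPKM in any LL or DP library, so with 1 added its log2 ratio there followed mainly FASN. Its test therefore cannot tell a change of THRSP from the change of FASN. As percent of FASN, THRSP in LG (0.0987% to 0.768%) overlapped with DP (0.373% to 0.762%) and with LL (at most 0.112%). ACACA was at 2.13% to 3.92% of FASN in LL, 10.3% to 13.2% in DP, with 2.72% to 4.94% in LG, so its lower level in DP was less marked than that of FASN. SCD was at 46.9% to 159.9% of FASN in LL, with 10.7% to 15.4% in DP and 12.3% to 36.5% in LG, and ELOVL6 at 0.292% to 0.528%, 4.27% to 6.59% and 2.33% to 7.44%. Leaving out 1 library ended some of these calls in the permutation test. THRSP did not pass without any one of the DP libraries (adjusted p = 0.0505 to 0.0771), nor ACACA without LL replicate 1 or LG replicate 1 (adjusted p = 0.0536 for each). SCD did not pass without LL replicate 2, LL replicate 3, LG replicate 3 or any one of the DP libraries (adjusted p = 0.0505 to 0.107). ELOVL6 passed whichever library was left out, as did ACLY and SREBF1. The ratios of INSIG1, ACSS2 and FADS1 did not pass with all libraries (adjusted p = 0.0597, 0.0844 and 0.214 in the permutation test), and each passed at 0.0321 with 1 library left out (LL replicate 2, DP replicate 3 and LG replicate 3, in that order). Since FASN and CCDC57 are tied, ratios to ACACA were computed as well, and there SREBF1 (adjusted p = 0.0551) and THRSP (adjusted p = 0.0804) no longer passed the permutation test.

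**Figure D3:**
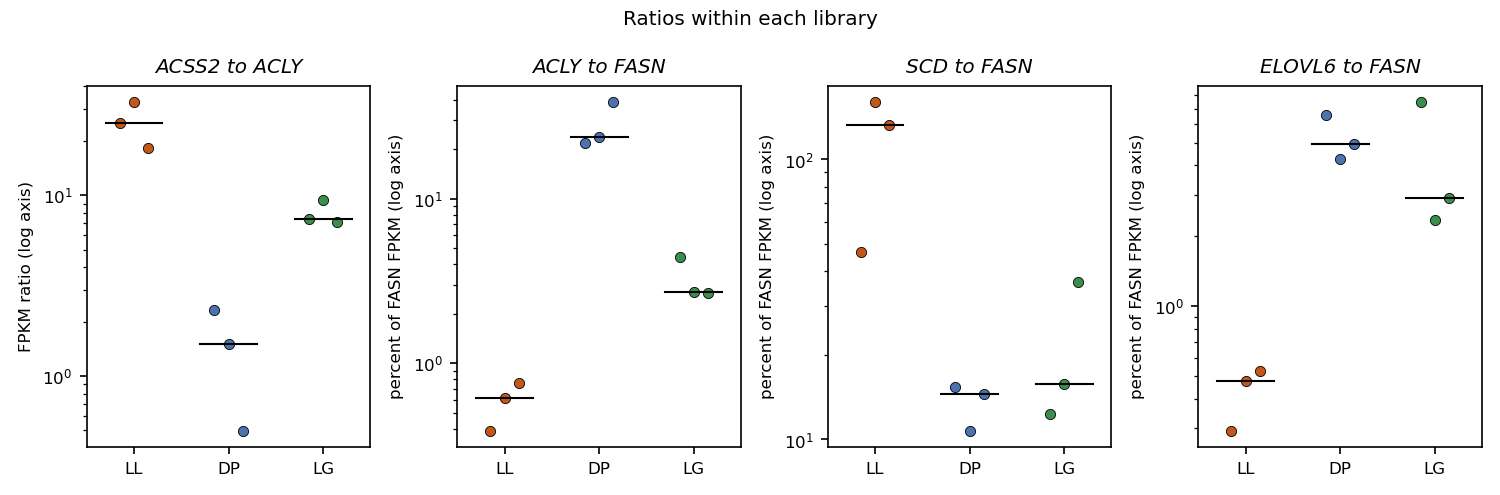
Ratios of FPKM within each library (y axes, logarithmic) in LL, DP and LG: ACSS2 to ACLY, and ACLY, SCD and ELOVL6 as percent of FASN. Points are libraries and lines the median of 3. ACSS2 to ACLY runs from 18.2 to 32.6 in LL to 0.497 to 2.32 in DP, and ACLY rises from at most 0.758% of FASN in LL to at least 21.6% in DP.

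The wider pathway was followed in a list of 51 other genes, which held further synthesis enzymes, elongation and desaturation enzymes, sources of NADPH, regulators of SREBP and subunits of the AMP-activated kinase. Of these, 46 passed the filter on low values. The other 5 were OLAH, ELOVL2, ELOVL3, PPARGC1A and MLXIPL, and OLAH, the thioesterase that releases medium chains in rodents, was listed at 0 in all 9 libraries. In DP against LL, 10 of the 46 were called lower and 2 higher (median log2 fold change -0.33), beside 8.79% lower, 13.8% higher and 22.6% in all over the genes tested. In LG against LL 7 were called lower and 2 higher (median -0.29), beside 6.61%, 10.7% and 17.3% of all genes. In LG against DP 2 were lower and 4 higher (median -0.04), beside 6.88%, 6.37% and 13.3%. The calls of both directions added up were near the share of all genes in each comparison. By direction, the list had a larger share of lower calls and a smaller share of higher calls than all genes in DP and in LG against LL. In LG against DP the calls of each direction were also near the shares of all genes. Without scaling the calls of the list turned to mostly higher, with 18 higher and 2 lower in DP against LL and 13 higher and 1 lower in LG against LL. Those of all genes did the same. The medians of the list were then 0.76 and 0.70, below the 1.09 and 0.93 of all genes. In these comparisons 30 and 31 of the 46 genes lay below the median of all genes.

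By role, 3 of 8 tested synthesis enzymes were called lower in DP against LL and 1 higher, and of 13 elongation and desaturation enzymes 2 were lower and 1 higher. Of the enzymes that supply NADPH, PGD and IDH1 were called lower. Of 15 regulators 1 was called lower (MLX), and of 6 kinase subunits 2 (PRKAG1 and PRKAA2). These groups are small, and the counts of the elongation enzymes and the regulators were near or below the 8.79% lower and 13.8% higher of all genes. MLX was at -1.003 and was not called under any other scaling (0.34 without scaling, -0.65 under quantile normalization and -0.86 with the epithelial reference). PRKAA2 was not called without scaling (0.03) or with the epithelial reference (-0.91), and PGD not without scaling (0.03) or under quantile normalization (-0.88). PRKAG1 was called under both other scalings but not without scaling (-0.22). The lipogenic nuclear receptor PPARG was not called in any comparison and was at 1.95 to 2.51 FPKM in LL, 3.86 to 5.52 in DP, with 3.99 to 4.35 in LG.

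Besides ACSS1, the largest falls in DP against LL were those of TECR (log2 fold change -2.58, adjusted p = 2.32e-06), the reductase that closes each elongation cycle, and IDH1 (-1.86, adjusted p = 0.00513), the cytosolic source of NADPH from isocitrate that ruminant udders use. TECR was at 19.0 to 26.0 FPKM in LL, with 8.05 to 9.08 in DP and 23.8 to 29.5 in LG, and its fall in DP was called under all scalings tried. IDH1 was at 24.2 to 58.2 FPKM in LL, 19.7 to 29.5 in DP, with 43.6 to 120.4 in LG. Its change in DP against LL was -0.49, not called, without scaling. Both were called higher in LG against DP (TECR 1.68, adjusted p = 7.38e-05; IDH1 1.81, adjusted p = 0.0101).

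OXSM, the mitochondrial ketoacyl synthase, and HACD4, a dehydratase of elongation, were the 2 genes called higher in DP against LL. OXSM was at 0.13 to 0.45 FPKM in LL, with 2.91 to 4.37 in DP and 2.56 to 3.80 in LG. Its log2 fold changes were 1.30 (adjusted p = 0.000284) for DP and 1.29 (adjusted p = 0.000416) for LG against LL. HACD4 was at 0.07 to 0.18 FPKM in LL and 1.84 to 3.80 in DP (1.16, adjusted p = 0.00116). Under quantile normalization OXSM and HACD4 were at 0.90 and 0.92 in DP and not called. In LG against LL the largest falls beside ACSS1 were those of HSD17B12 (-1.82, adjusted p = 6.26e-05), the ketoacyl reductase of elongation, and ME1 (-1.58, adjusted p = 0.00044), the malic enzyme; without scaling they were -0.71 and -0.93 and not called. ACACB, the carboxylase of the mitochondrial surface, was at 1.07 to 1.71 FPKM in LL, 1.69 to 2.61 in DP, with 1.04 to 1.54 in LG and was not called in any comparison, and ACACA stood at 2.84 to 5.44 times ACACB in DP against 7.09 to 14.9 in LL and 11.1 to 17.5 in LG.

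**Figure D4:**
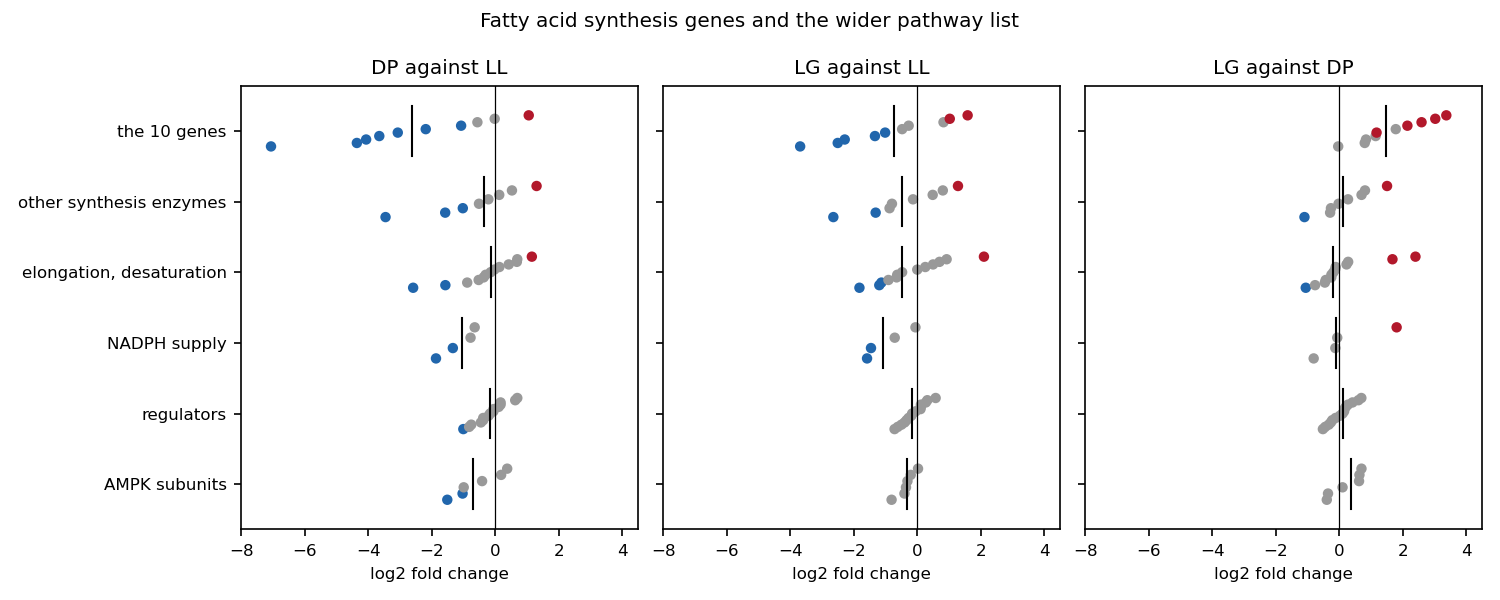
Log2 fold change after median-ratio scaling (x axis) of the 10 genes and of the 46 tested genes of the wider list, by role (y axis), in the 3 comparisons. Points are genes, red where called higher, blue where called lower and grey otherwise, and black lines mark the median of the role. The median of the 10 genes is -2.63 in DP against LL, and those of the other roles lie between -1.05 and -0.14.

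Markers of fibroblasts and leukocytes were called higher in DP against LL more often than the 13.8% of all genes, and those of other cell types were not. Of the 10 tested luminal epithelium genes 1 was called lower in DP against LL (ELF5) and 0 higher, beside 8.79% and 13.8% of all genes. The scaled sum of the list was 955 to 1207 in LL, with 395 to 700.2 in DP and 920 to 1077 in LG. In FPKM the sum was 568 to 668 in LL, 604 to 1009 in DP and, in LG, 1102 to 1415, so the place of DP depended on the scaling. ELF5, a factor of secretory differentiation, was at 266 to 374 FPKM in LL, 37.6 to 63.7 in DP, with 504 to 654 in LG. The lower scaled sum in DP came mainly from ELF5: without it the scaled sum was 469 to 532 in LL, with 369 to 656 in DP and, in LG, 469 to 579, and all 3 stages overlapped. Single genes were lower besides ELF5: scaled DP values of EPCAM, CDH1 and ESRP1 also lay below all LL values. Those of KRT7 lay above all LL values. Over all genes, values did not overlap for 33.4% (lower) and 32.5% (higher). Of 8 fibroblast genes 7 were called higher in DP against LL, and their scaled sum was 234 to 357 in LL, 584 to 2616 in DP and, in LG, 538 to 978, and in LG against DP 4 were called lower. Of 7 tested leukocyte genes 4 were called higher in DP against LL and 5 lower in LG against DP. Over all genes tested, 6.88% were called lower in LG against DP. Basal and myoepithelial genes gave 1 call of 8 in DP against LL (higher) and endothelial genes 0 of 7. All 7 endothelial changes were nevertheless above 0 in DP against LL (median log2 fold change 0.62), and 3 had an adjusted p under 0.05 by limma. In LG against DP 2 of the 7 endothelial genes were called lower. The epithelial reference for the scaling was KRT8, KRT18, KRT19, EPCAM and CDH1. Their own log2 fold changes in DP against LL ran from -0.74 (EPCAM) to 0.60 (KRT18), so the reference is not a steady measure of epithelium. When the scaling used this reference, the median log2 fold change of the 10 fatty acid genes in DP against LL was -2.48. That of all genes was 0.13 under the same scaling, and 9 of the 10 genes lay below it. The part of cell composition in the changes of the 10 genes was not tested.

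Adipocytes also make fatty acids and express FASN, SCD and THRSP. Of 13 adipocyte markers 12 were in the table used and 8 were tested, with 0 called higher and 2 lower (CIDEA and LIPE) in DP against LL. Over all genes tested, 13.8% were called higher and 8.79% lower. DP replicate 1 stood apart for some of these markers but not for all. ADIPOQ (adiponectin) was at 19.3 FPKM there, at 0.79 and 1.72 in the other DP libraries and at 0.08 to 0.41 in LL and LG. PLIN1 was at 5.83 there and at 0.05 to 0.41 elsewhere. LEP was listed at 0 in LL and was at 0.86 FPKM in DP replicate 1. The scaled sum of the list was 292 to 434 in LL, 32.2 to 68.6 in DP, with 42.7 to 44.9 in LG, and in LL CIDEA alone, which secretory epithelium also expresses, was at 155 to 217 FPKM. DP replicate 1 had the highest DP values of FASN, ACSS2, ACACA, SCD, THRSP and ELOVL6. Without it, the same 8 of the 10 genes were called in DP against LL, with -4.52 for FASN, -3.52 for ACSS2 and -7.29 for SCD. With all libraries, 22.6% of all genes were called in this comparison. Leaving out the library with the highest DP values of these genes could only enlarge their falls, so this says nothing about adipocytes. Whether adipocytes had a part in the DP levels of these genes was not tested.

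The 10 genes did not all share 1 pattern over the 9 libraries. On the log2 scaled values, Pearson's r of each gene with the mean of the other 9 was 0.953 for FASN, 0.941 for ACSS2, 0.884 for ACACA, 0.874 for SREBF1, 0.855 for SCD, 0.761 for FADS1, 0.687 for INSIG1, 0.512 for ELOVL6, 0.180 for THRSP and -0.602 for ACLY. These values come from 9 libraries in 3 stages and are given as a description. Outside the 10, the genes whose scaled values were most like the mean of the 10 were RBM47 (r = 0.994), AP1S1 (0.993), SLC25A39 (0.991), HSD17B10 (0.990) and MOV10 (0.990). RBM47, an RNA-binding protein, was at 15.9 to 17.6 FPKM in LL, with 9.35 to 14.2 in DP and 28.2 to 39.6 in LG. All 5 genes were called lower in DP against LL and higher in LG against DP, directions that their choice by likeness favoured. None was called in LG against LL (log2 fold changes -0.20 to -0.12).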

How the data were processed

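Total RNA of frozen mammary tissue was made into TruSeq libraries, and the submitters' processing notes name FastQC, Trimmomatic, HISAT2, SAMtools and HTSeq. The deposited table gives 1 value per gene and library (9 columns, all used) and names neither unit nor genome build. The values that the authors deposited were taken as FPKM, the measure of the study's methods, since they have decimals and sum to different totals. All 10 genes have the same start and end in RefSeq ARS1.2. FPKM carry no read count, so the depth behind a value is unknown and no counting error was computed.

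Values were divided by median-ratio factors from 15905 genes, and log2(value + 1) of 14701 genes was fitted with limma 3.58.1 in R 4.3.3 (3 stages in one fit, eBayes with a mean-variance trend, Benjamini-Hochberg over all genes tested). Shares and ratios were tested by exact permutation in Python 3.11.15. The fit was tested on simulated data. The limma p-values rest on the spread between 3 goats per stage, pooled over the 3 stages and drawn towards that of other genes. Permutation p-values come from regrouping the libraries of the stages compared. Alternatives covered the scaling (none, quantile, or a reference of epithelial genes), the pseudocount (0.1), the filter (none, or 2 FPKM), the libraries fitted, the trend, a replicate block, each library left out, the denominator of the share and the reference of the ratios. Members, lists and tests were chosen with earlier results of these data known. From the wider list the text names close relatives of the 10 genes and, per comparison, up to 3 called genes with the largest change in each direction; genes named beyond that rule (AMP-activated kinase subunits, MLX, PGD, PPARG, the genes not tested and the pair ACSS2 and ACLY) were chosen after their values were seen.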

Additional observations from a re-analysis of the deposited data

How the results depend on the processing

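Of the log2 fold changes of the 10 genes, 238 alternatives with all libraries kept direction and side of the threshold, 9 fell below it, 10 passed it and 8 reversed. With 1 library left out, the numbers were 242, 9, 6 and 4. Scaling mattered most. Without it, 8348 genes were called in DP against LL (7979 higher) and 7043 in LG against LL (6698 higher), the wider list had 20 and 14 calls, and 6 changes reversed: SREBF1 0.17, THRSP 0.26 and ELOVL6 0.50 in DP against LL, and ACACA 0.11, ACSS2 0.69 and SREBF1 0.79 in LG against LL. Quantile normalization gave 7 calls of the wider list in DP against LL, and a pseudocount of 0.1 gave 3912 genes in LG against LL. The change of THRSP in DP against LL, near 0, was 0.0129 with the epithelial reference, 0.24 with a pseudocount of 0.1, 0.19 without LL replicate 3 and 0.06 without DP replicate 3 (range with 1 library left out -0.21 to 0.19). That of ACLY in LG against DP was 0.10 without DP replicate 3 and 0.08 without LG replicate 2 (range -0.17 to 0.10). The cause was not tested.

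Without the milk protein genes the LL share was 0.181%, and without the 10 highest genes the LL, DP and LG shares were 0.739%, 0.0523% and 0.250%. Ratios to ACACA gave another order of stages for ACSS2 (exact permutation test, adjusted p = 0.0241) and ELOVL6 (0.0214), and adjusted p = 0.0551 for SREBF1 and 0.0804 for THRSP. With 1 library left out, adjusted p of the ratios to FASN (exact permutation test) ran from 0.0257 to 0.0536 for ACACA, 0.0386 to 0.107 for SCD, 0.0214 to 0.0771 for THRSP, 0.0321 to 0.161 for INSIG1, 0.0321 to 0.257 for ACSS2 and 0.0321 to 0.668 for FADS1.

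Replicate numbers name libraries of different goats. Same-numbered libraries had deviation correlations of -0.106 to 0.201. Only 3 of 9 pairs were over 0.1, where pairing was to require all 9, so the numbers were not taken as pairs, although 6 of 9 libraries correlated best with their own number, a hint from the data and not from the design. With a replicate block, 3340, 2564 and 1986 genes were called in DP against LL, LG against LL and LG against DP, and INSIG1 (adjusted p = 0.0277 by limma) and FADS1 (0.0462) were called in LG against DP. The filter at 2 FPKM removed THRSP.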

Other observations

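The gene next to ACSS2 on chromosome 13, GSS (glutathione synthetase, 628 bases away on the opposite strand), was at 21.8 to 43.3 FPKM in LL, with 3.75 to 8.08 in DP and 34.2 to 59.9 in LG. Over the 9 libraries its r with ACSS2 was 0.894, and the difference between the 2 genes ran from 6.96 to 93.2 FPKM, so they were not tied as FASN and CCDC57 were. Whether reads were counted by strand is not given in the sources used here.

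The LG libraries that ranked high for one gene did not rank high for all. FADS1, SCD and FASN were highest in LG replicate 3 (39.4, 244 and 668 FPKM) and lowest in LG replicate 1, whereas ELOVL6 and THRSP were highest in LG replicate 1 (25.9 and 2.67 FPKM) and lowest in LG replicate 2. The whey protein gene LALBA was at 1079 FPKM in LG replicate 1, 489.7 in replicate 2 and 130.3 in replicate 3.

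The values are those of 3 goats per stage. FPKM without read counts give no counting error, so the precision of low values such as those of THRSP and FADS2 is unknown.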
